A study of Mus musculus with 70 samples.

Results

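The change between 5 d and 7 d after a stress fracture of the ulna was measured in injured ulnas of mice, as 4 libraries at 7 d set against 5 libraries at 5 d. These are 9 of the 67 bone libraries in the tables, and all genes were followed. The libraries were chosen by the time named on the table and by the mark of the injured right side on the column, not by any measured value. Every group used here came from female C57BL/6 mice 12 weeks old, with no transgene named in the labels. The groups were ulnas 7 d after stress fracture (4 of 5 labelled samples have a column here), ulnas 5 d after stress fracture (5 of 5), ulnas 3 d after stress fracture (5 libraries) and intact ulnas of the left side (9 of 10). Ulnas 4 h (5 libraries) and 1 d (4 libraries) after stress fracture also entered the scaling and the fit. A separate comparison used femurs 14 d (5 libraries) and 7 d (5 libraries) after a full fracture. Its fit also held intact femurs and femurs 4 h, 1 d and 3 d after full fracture. The ulna tissue was a 5 mm piece around the injury, cleaned of soft tissue and crushed whole. The time labels name periosteum, and marrow removal is described for femurs but not for ulnas. The ulna columns are not tied to animals, so each library counts as 1 sample. P-values rest on the spread within groups over all 32 ulna libraries, not only the 7 d and 5 d ones. They cover only how far libraries differ from each other.

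A stress fracture is a crack made by repeated loading that leaves the bone in line, and it heals largely by woven bone laid down by osteoblasts of the periosteum, with a variable amount of cartilage. In cartilage, chondrocytes under the transcription factor SOX9 secrete collagens II and IX, aggrecan and link proteins, then enlarge, make collagen X, and are replaced by bone. Osteoclasts are fused cells of the macrophage lineage that attach to mineral, acidify it with a proton pump and digest its collagen. Cells that secrete much matrix also carry a large endoplasmic reticulum, where collagen is folded and hydroxylated and where sugar chains are added.

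Values are RPKM, which is reads divided by gene length and by library total, scaled between libraries by the median of ratios. A gene was said to have risen or fallen where limma's test over all genes gave an adjusted p under 0.05. Libraries held 12.8 to 17.4 M (mega) assigned reads at 7 d and 13.7 to 17 M at 5 d. Tissue markers other than bone were present in every group. The summed level of 20 skeletal muscle markers was 8220 to 16510 scaled RPKM at 7 d, 10410 to 15220 at 5 d and 16060 to 24720 in intact ulnas. That of 15 erythroid markers was 1661 to 3359 at 7 d, 824.2 to 3561 at 5 d and 5330 to 9107 in intact ulnas.

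Library 4 of the 7 d group stood apart from the other 3. On the first principal component of the ulna libraries, which held 19.1% of the variance, it had a score of 15.8, against 47.8 to 50.3 in the other 7 d libraries, 39.5 to 76.5 at 5 d and −41.8 to −29.6 in intact ulnas. It was also the least deeply read of the 9. Library 2 of the 5 d group had the highest score, 76.5. Values without library 4, or without both libraries together, are given beside many of the results.

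Between 5 d and 7 d most of the genes that changed fell. Of 20890 genes tested, 58 rose (0.278%) and 286 fell (1.37%). Predicted, clone or small RNA names were carried by 17 of the rises and 8 of the falls, and such genes are not named here. At least 2-fold changes numbered 21 rises (0.101%) and 43 falls (0.206%). The median log2 difference over all genes was 0.002, and 2846 genes had an unadjusted p under 0.05. All 4 libraries at 7 d lay above all 5 d libraries in 291 genes (1.39%) and below them in 767 genes (3.67%). The shares given here are the background for the list counts that follow. Without 7 d library 4, 41 genes rose and 53 fell, without 5 d library 2, 30 rose and 80 fell, and without both 31 rose and 20 fell. Without 7 d library 5, 20 rose and 143 fell, and without 5 d library 4, 31 rose and 130 fell. Every one of the 343 called genes still tested without 7 d library 4 kept its sign, but they had been called with that library included. On RPKM as deposited, with no scaling, 53 genes rose and 91 fell, and the median of all genes was then 0.068. A fit of the 9 libraries alone, which takes the spread from the 7 d and 5 d libraries only, called 3 rises and 19 falls.

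The largest falls were in cartilage matrix. Of 16 chondrocyte markers tested, 7 fell and none rose, with a median log2 difference of −1.88. In 10 of the 16, all 7 d libraries lay below all 5 d libraries, beside 3.67% of all genes. Hapln1, the link protein that ties aggrecan to hyaluronan (GRCm38 chr13:89539796-89611652), had 3.40, 4.30, 1.02 and 6.37 scaled RPKM in 7 d ulnas, against 14.2, 55.2, 33.2, 19.6 and 19.2 in 5 d ulnas. The groups did not overlap, with 7 d library 4 lowest and 5 d library 2 highest. The fall was 7.74-fold (log2 difference −2.95 ± 0.45 SE, adjusted p = 0.00115), and without 7 d library 4 the log2 difference was −2.44 (adjusted p = 0.00487).

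Matn3, which encodes a matrilin, a filament-forming adaptor of cartilage matrix, had 4.11, 5.56, 0.611 and 7.38 scaled RPKM at 7 d, against 12.1, 67.0, 37.5, 19.7 and 13.7 at 5 d. It fell 7.22-fold (log2 difference −2.85 ± 0.52 SE, adjusted p = 0.00358). Matn1, its relative, had 0.406, 0.321, 0 and 0.538 scaled RPKM at 7 d, against 0.461, 9.03, 5.13, 3.10 and 1.94 at 5 d, with a log2 difference of −3.04 (adjusted p = 0.00427). The lowest 5 d library of Matn1 was inside the range of the 7 d libraries. Collagen IX, which coats collagen II fibrils, fell in 2 of its 3 chains. Col9a1 had 10, 15.5, 1.17 and 13.7 scaled RPKM at 7 d, against 26.1, 112, 56.0, 33.3 and 31.3 at 5 d (log2 difference −2.62, adjusted p = 0.0102). Col9a3 averaged 10.2 ± 6.44 at 7 d and 55.4 ± 38.4 at 5 d (SD, n = 4 and 5), with a log2 difference of −2.76 (adjusted p = 0.00653). With 7 d library 4 left out, Col9a1 no longer passed (adjusted p = 0.0646), whereas Matn3, Matn1 and Col9a3 did (adjusted p 0.0186 to 0.0353). With 5 d library 2 left out as well, those 3 did not pass either (adjusted p 0.0539 to 0.131), and Hapln1 did (0.0204). The third chain, Col9a2, had a log2 difference of −2.08 and did not pass (adjusted p = 0.0670).

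Acan, which encodes aggrecan, the chondroitin sulphate carrier that swells cartilage, had 36.2, 36.7, 19.7 and 43.9 scaled RPKM in 7 d ulnas, against 94.6, 199, 152, 122 and 83.3 in 5 d ulnas. Every 7 d library was below every 5 d library, and the fall was 3.77-fold (adjusted p = 0.0169). Sox9, the master transcription factor of chondrocytes, had 1.62, 1.24, 1.15 and 2.66 at 7 d, against 2.85, 6.67, 5.32, 4.04 and 3.13 at 5 d, a 2.55-fold fall (adjusted p = 0.0143). Neither Acan nor Sox9 passed when 7 d library 4 was left out (adjusted p = 0.104 and 0.0889). Col2a1, the main cartilage collagen, had 190, 228, 21.9 and 248 scaled RPKM at 7 d, against 240, 1007, 643, 420 and 268 at 5 d. Its groups overlapped and it did not pass (log2 difference −1.84, adjusted p = 0.199). Lect1, a chondrocyte protein that keeps vessels out of cartilage, stood at the threshold (log2 difference −2.68, adjusted p = 0.0509). Chad, a leucine-rich matrix protein of cartilage, was the only member with a positive difference (0.38, adjusted p = 0.721).

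At 7 d the cartilage list still lay above every intact ulna. The mean log2 level of the 16 chondrocyte markers stood 1.11 to 3.05 above the mean of intact ulnas in 7 d libraries, against 3.34 to 4.95 above it in 5 d libraries, and intact ulnas reached 0.46 at most. Library 4 was the 1.11, and the other 3 libraries at 7 d were 2.73 to 3.05. Without library 4 the median of the list was −1.18 and 4 of the 16 members fell. Without that library and 5 d library 2 together, the median was −0.94 and 1 member fell. In bulk samples such as these, fewer cells of a type and less RNA per cell cannot be told apart.

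**Figure D1:**
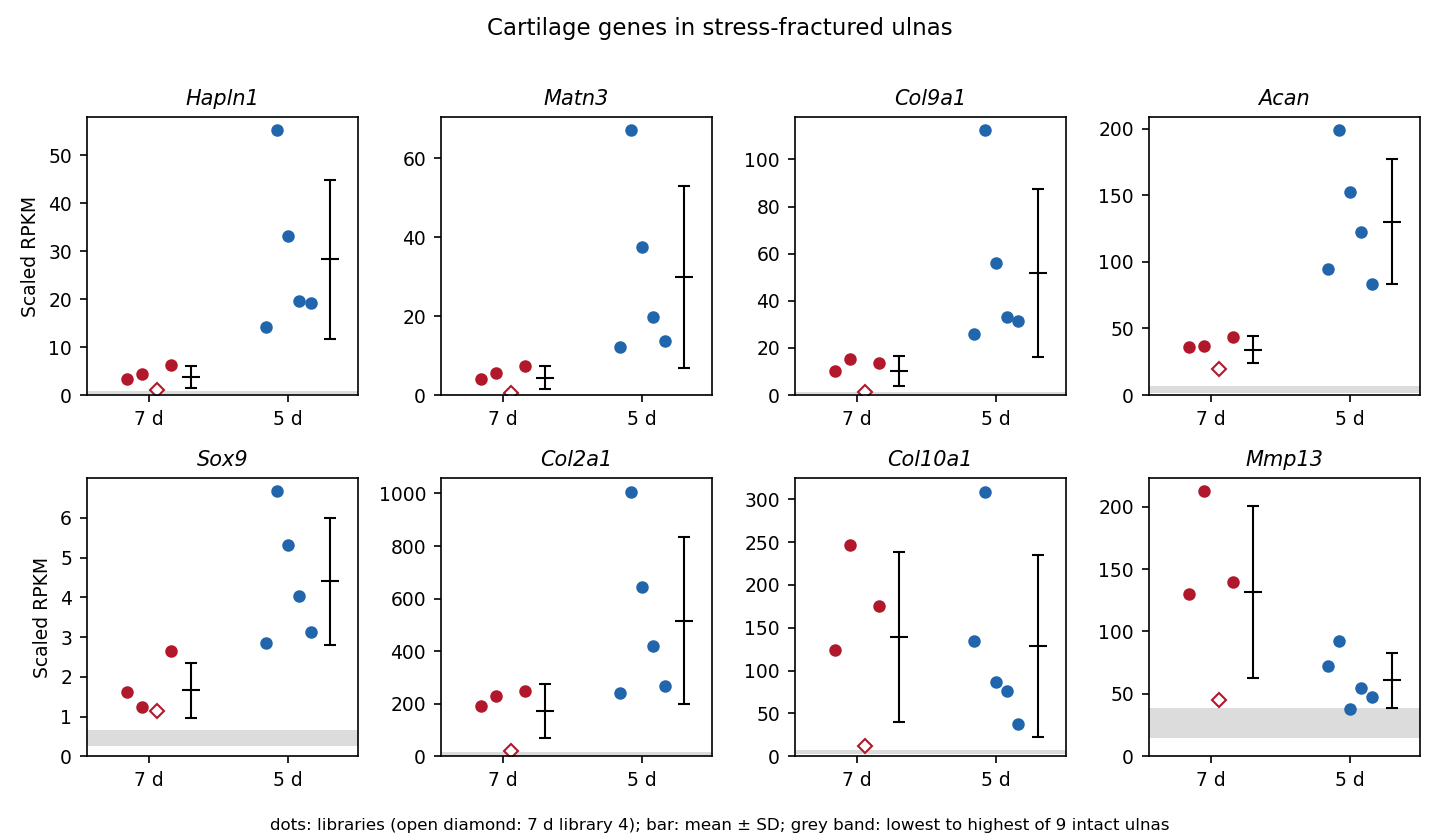
Scaled RPKM (vertical axes, starting at 0) of 8 cartilage genes in 7 d (red) and 5 d (blue) stress-fractured ulnas, one point per library, with the mean and SD beside them and the range of 9 intact ulnas as a grey band. Hapln1, Matn3, Col9a1, Acan and Sox9 show no overlap between the times, whereas Col2a1, Col10a1 and Mmp13 overlap, and 7 d library 4 (open diamond) is the lowest 7 d library in each panel.

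Genes of enlarged, late-stage chondrocytes differed in sign among themselves. Of 8 hypertrophic chondrocyte markers 1 fell and none rose, with a median of −0.34. Col10a1, the collagen of hypertrophic cartilage, had 124, 246, 11.8 and 176 scaled RPKM in 7 d ulnas, against 135, 309, 86.3, 76.3 and 37.8 in 5 d ulnas. Apart from library 4, the 7 d libraries lay within the range of the 5 d ones (log2 difference −0.17 ± 0.61 SE, adjusted p = 0.950). The sign rested on library 4. With it left out the difference was 0.80 (adjusted p = 0.624), and with 5 d library 2 left out too 1.20 (adjusted p = 0.379). Mmp13, the collagenase that opens hypertrophic cartilage, had 130, 213, 45.0 and 139 at 7 d, against 72.5, 92.2, 37.6, 54.5 and 47.2 at 5 d. Its 7 d libraries other than library 4 were above all 5 d libraries, and library 4 lay within their range (log2 difference 0.99 ± 0.41 SE, adjusted p = 0.260). The Mmp13 difference was 1.44 with 7 d library 4 left out (adjusted p = 0.104) and 1.60 with 5 d library 2 left out too (adjusted p = 0.110). Panx3, a pannexin channel of maturing chondrocytes and osteoblasts, had 35.5, 25.6, 8.62 and 28.6 at 7 d, against 49.0, 106, 54.2, 65.7 and 51.4 at 5 d. It fell 2.86-fold (adjusted p = 0.0180), but without 7 d library 4 its log2 difference was −1.07 (adjusted p = 0.132).

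Hedgehog signals link these cells to the surrounding periosteum, where Indian hedgehog from maturing chondrocytes acts on the receptor PTCH1 and the transducer SMO. Of 10 hedgehog and PTHrP genes tested, 2 fell and none rose, with a median of −0.41. The ligand Ihh had 4.41, 5.28, 0.579 and 3.22 scaled RPKM at 7 d, against 5.17, 12.1, 7.53, 4.49 and 3.62 at 5 d, and did not pass (adjusted p = 0.189). Ptch1, a receptor that is itself a target of the pathway, had 13.7, 11.8, 6.64 and 10.97 at 7 d, against 15.7, 30.1, 21.7, 21.6 and 14.8 at 5 d. No 7 d library reached the 5 d libraries, and the fall was 1.92-fold (adjusted p = 0.00398; 0.0306 without 7 d library 4 and 0.0862 without that library and 5 d library 2). Smo fell 1.28-fold (adjusted p = 0.0457), which did not hold without that library (adjusted p = 0.242). Gli1, the other usual target, had a log2 difference of −0.57 (adjusted p = 0.0844).

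Among the gene lists, osteoclast markers held the most rises. Of 16 osteoclast markers tested, 8 rose and none fell, and all 16 had a positive difference, against 50.3% of all genes tested. Their median log2 difference was 0.65. Acp5, tartrate-resistant acid phosphatase, the classical osteoclast enzyme (chr9:22126727-22135711), had 158, 211, 81.7 and 226 scaled RPKM in 7 d ulnas, against 45.0, 48.0, 47.9, 75.7 and 45.5 in 5 d ulnas and 43.6 to 78.1 in intact ulnas. All 7 d libraries were above all 5 d libraries, and 7 d library 4 lay closest to them. The rise was 3.07-fold (log2 difference 1.62 ± 0.25 SE, adjusted p = 0.00115), and without that library the difference was 1.93 (adjusted p = 2.61e-05).

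Ctsk, the collagen-digesting cathepsin K, had 246, 382, 124 and 326 scaled RPKM in 7 d ulnas, against 126, 144, 100, 126 and 122 in 5 d ulnas. Library 4 was within the 5 d range and the other 3 were above it, and the rise was 2.03-fold (adjusted p = 0.0245). Mmp9, the gelatinase of osteoclasts, had 184, 218, 96.1 and 227 at 7 d, against 56.5, 55.2, 69.9, 100 and 70.2 at 5 d, a 2.50-fold rise (adjusted p = 0.00229) in which library 4 stayed within the 5 d range. Genes of cell fusion rose too. Dcstamp had 3.99, 6.54, 1.42 and 5.52 at 7 d, against 1.47, 1.22, 0.736, 1.44 and 1.14 at 5 d (3.07-fold, adjusted p = 0.0118). Ocstamp had 5.59, 7.35, 1.47 and 5.91 at 7 d, against 1.41, 1.56, 1.18, 1.77 and 1.21 at 5 d (2.96-fold, adjusted p = 0.00490). In both, 7 d library 4 lay at the 5 d level. Oscar, a collagen-binding immune-type receptor that co-stimulates osteoclast formation, rose 3.15-fold (adjusted p = 0.00784).

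Of the proton pump, which osteoclasts place in the ruffled border, few subunits passed the test. The list of 20 tested subunits and accessory genes was assembled after the values had been seen. In it 2 genes rose and 1 fell, with a median of 0.10. Atp6v0d2, the subunit that osteoclasts favour, had 16.9, 22.6, 7.65 and 19.1 scaled RPKM at 7 d, against 5.58, 6.12, 4.29, 6.42 and 6.03 at 5 d. All 7 d libraries were above the 5 d libraries, and the rise was 2.70-fold (adjusted p = 0.00434). Atp6v1b2, a catalytic-sector subunit, averaged 22.9 ± 3.65 at 7 d and 14.9 ± 0.683 at 5 d (SD, n = 4 and 5), a 1.52-fold rise without overlap (adjusted p = 0.00115). Tcirg1, the osteoclast a3 subunit, had a log2 difference of 0.32 (adjusted p = 0.344), and Atp6v0a2 fell 1.20-fold (adjusted p = 0.0406).

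Other osteoclast markers had smaller differences. Tnfrsf11a, the receptor RANK, had 6.27, 7.55, 3.77 and 6.64 at 7 d, against 3.82, 4.63, 3.80, 4.25 and 3.53 at 5 d, and did not pass (adjusted p = 0.129; 0.0353 without 7 d library 4). Car2, the carbonic anhydrase that supplies protons and is also abundant in red cells, had 58.0, 90.7, 128 and 65.7 at 7 d, against 47.3, 36.6, 115, 104 and 88.8 at 5 d (adjusted p = 0.856). Of the 16 markers 9 rose without 7 d library 4, and without it and 5 d library 2 together 9 rose as well. Leaving out single libraries gave 6 to 9. In the fit of the 9 libraries alone none of the 16 passed, with a median of 0.65, and none of the 16 chondrocyte markers did, with a median of −1.88.

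Of 10 osteoclast signals, 1 rose. Sema4d, a semaphorin made by osteoclasts, had 14.9, 15.5, 12.0 and 15.5 scaled RPKM at 7 d, against 8.38, 10.1, 10.7, 12.2 and 10.4 at 5 d, a 1.396-fold rise (adjusted p = 0.0112). Tnfsf11, the osteoclast-inducing ligand RANKL, had 4.81, 5.83, 2.09 and 5.00 at 7 d, against 3.72, 4.70, 2.85, 3.63 and 3.52 at 5 d, with overlapping groups (log2 difference 0.18 ± 0.33 SE, adjusted p = 0.881). Its decoy receptor gene Tnfrsf11b had 7.37, 7.51, 7.84 and 7.00 at 7 d, against 11.8, 10.6, 8.14, 11.4 and 8.76 at 5 d. All 7 d libraries were below all 5 d libraries, but the difference of −0.43 did not pass (adjusted p = 0.478). Csf1, the macrophage growth factor that osteoclast precursors need, had a log2 difference of 0.39 (adjusted p = 0.176).

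**Figure D2:**
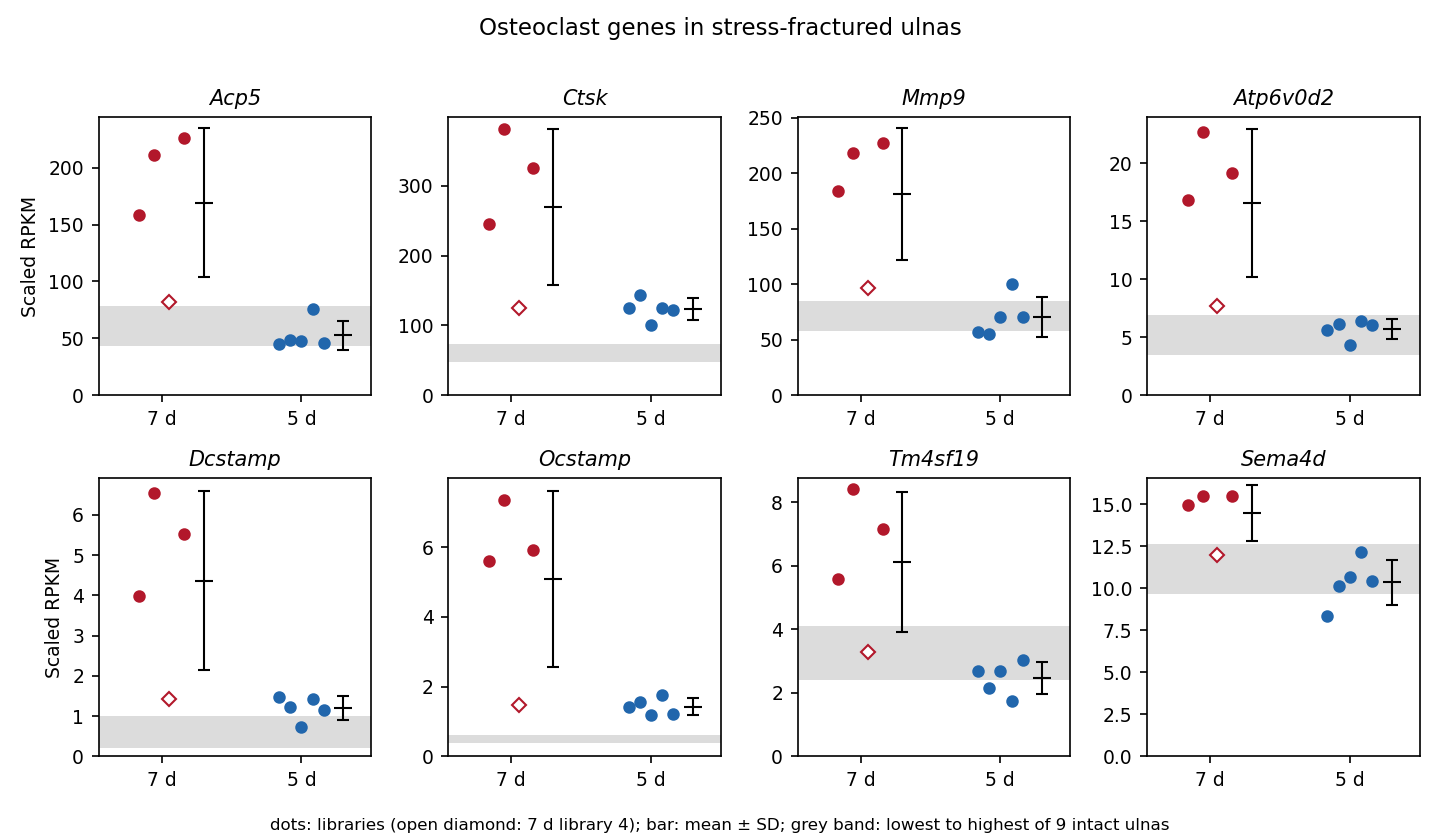
Scaled RPKM (vertical axes, starting at 0) of 8 osteoclast-related genes in 7 d (red) and 5 d (blue) stress-fractured ulnas, one point per library, with the mean and SD and the range of 9 intact ulnas in grey. The 7 d libraries other than library 4 stand above all 5 d libraries in each panel, and 7 d library 4 (open diamond) stands near the 5 d libraries.

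The 12 largest rises by the naming rule were Mt3, Acp5, Atp6v0d2, Tm4sf19, Snx10, Ccr1, Arsb, Myl6b, Fam78b, Atp6v1b2, Adrbk2 and Cp. Mt3, a metal-binding metallothionein, had 6.51, 10.4, 3.71 and 7.38 scaled RPKM at 7 d, against 1.00, 2.97, 2.04, 2.79 and 1.60 at 5 d (3.26-fold, adjusted p = 0.0464). Tm4sf19, a tetraspan-type membrane protein, had 5.58, 8.42, 3.29 and 7.17 at 7 d, against 2.69, 2.16, 2.68, 1.74 and 3.04 at 5 d (2.34-fold, adjusted p = 0.00229). Snx10, a sorting nexin without which osteoclasts fail to resorb, had 4.70, 5.90, 3.60 and 6.60 at 7 d, against 2.94, 3.16, 2.61, 2.59 and 3.15 at 5 d (1.74-fold, adjusted p = 0.00128). Groups of these 3 do not overlap because the naming rule admits only such genes. Ccr1, a chemokine receptor of myeloid cells, averaged 8.48 ± 1.77 at 7 d and 4.86 ± 0.596 at 5 d (SD, n = 4 and 5; adjusted p = 0.0460). Arsb, a lysosomal sulphatase that degrades chondroitin and dermatan sulphate, averaged 13.4 ± 1.79 at 7 d and 8.195 ± 1.03 at 5 d (adjusted p = 0.00175). The other named rises were Myl6b (a myosin light chain), Fam78b, Adrbk2 (a kinase that phosphorylates receptors) and Cp (ceruloplasmin, a ferroxidase). They were 1.45-fold to 1.59-fold with adjusted p from 0.0127 to 0.0478. When 7 d library 4 was left out, Mt3, Ccr1 and Myl6b did not pass (adjusted p = 0.0566, 0.0585 and 0.120), and the other named rises did. With 5 d library 2 left out as well, Fam78b and Cp did not pass either (adjusted p = 0.0722 and 0.0672).

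Among the 12 largest falls by the same rule, Hapln1, Matn3, Col9a3, Col9a1, Acan and Panx3 are described above. C1qtnf3, a secreted C1q-like protein made by chondrocytes and fibroblasts, had 15.4, 15.8, 15.1 and 14.5 scaled RPKM in 7 d ulnas, against 61.9, 95.3, 73.6, 46.9 and 40.4 in 5 d ulnas. Here library 4 lay among the other 7 d libraries, and the fall was 3.97-fold (adjusted p = 0.00940; 0.0353 without library 4 and 0.112 without it and 5 d library 2). Capn6, a calpain relative without protease activity that binds microtubules, had 5.08, 5.47, 3.46 and 5.57 at 7 d, against 14.3, 24.6, 16.4, 13.7 and 10.7 at 5 d (3.14-fold, adjusted p = 0.000578). Tubb3, a tubulin best known from neurons, had 3.72, 2.71, 1.68 and 1.79 at 7 d, against 6.67, 7.52, 7.03, 8.90 and 5.64 at 5 d (2.92-fold, adjusted p = 0.00956). Zcchc5, Rarres1 and Kcns1 (a silent potassium channel subunit) fell 3.58-fold, 2.74-fold and 2.58-fold. The naming rule admits only genes without overlap, so none of these 6 could have overlapping groups. Capn6 and Zcchc5 passed with 7 d library 4 left out (adjusted p = 0.00150 and 0.00573), whereas Tubb3, Rarres1 and Kcns1 did not (adjusted p 0.0585 to 0.147).

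Some genes of protein secretion fell, by smaller amounts. In 18 collagen processing enzymes, 4 fell, none rose and all differences were negative, with a median of −0.54. P4ha1, a catalytic chain of the prolyl hydroxylase that stabilises the collagen helix, had 28.4, 29.2, 23.5 and 28.5 scaled RPKM at 7 d, against 43.1, 47.4, 32.9, 38.3 and 41.1 at 5 d. Every 7 d library was below every 5 d library, and the fall was 1.47-fold (adjusted p = 0.0165). P4ha2, the second catalytic chain, averaged 7.98 ± 0.824 at 7 d and 12.4 ± 1.10 at 5 d (SD, n = 4 and 5), a 1.54-fold fall (adjusted p = 0.0185). P3h4, a partner of the lysyl and prolyl hydroxylases, fell 1.71-fold (adjusted p = 0.0180), and Loxl3, a cross-linking oxidase, 1.48-fold (adjusted p = 0.0273). Serpinh1, the collagen chaperone HSP47, had 498, 473, 337 and 436 at 7 d, against 667, 909, 656, 879 and 614 at 5 d, without overlap (log2 difference −0.77, adjusted p = 0.0759). Without 7 d library 4, and likewise without 5 d library 2, none of the 18 passed.

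The fibrillar collagen chains of bone and scar did not pass. Col1a1, the main collagen of bone, had 7976, 7612, 5614 and 10270 scaled RPKM at 7 d, against 6197, 8081, 7771, 11780 and 7430 at 5 d (log2 difference −0.07 ± 0.46 SE, adjusted p = 0.979). Col3a1, a fibrillar collagen of young repair tissue, had a difference of −0.62 (adjusted p = 0.364). Of 21 fibrous matrix genes none passed the test (smallest adjusted p 0.0558, in Col6a1). In 6 of them all 7 d libraries were nevertheless below all 5 d libraries, beside 3.67% of all genes.

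In the endoplasmic reticulum, 3 of 16 secretion genes fell and none rose, with a median of −0.31 and all 16 differences negative. P4hb, the protein disulphide isomerase that also serves prolyl hydroxylase (chr11:120560298-120573253), had 179, 187, 148 and 172 scaled RPKM at 7 d, against 250, 306, 240, 272 and 238 at 5 d. The groups were far apart for their spread, with a 1.52-fold fall (log2 difference −0.60 ± 0.10 SE, adjusted p = 0.00212; 0.0150 without 7 d library 4 and 0.0549 without it and 5 d library 2). Sec61a1, the channel through which new proteins enter, had 27.3, 29.1, 20.8 and 27.3 at 7 d, against 38.1, 47.4, 35.9, 41.2 and 35.2 at 5 d (1.51-fold, adjusted p = 0.00928). Pdia6, another disulphide isomerase, fell 1.45-fold (adjusted p = 0.0141). Sec61a1 and Pdia6 did not pass with 7 d library 4 left out (adjusted p = 0.0695 and 0.0877). The chaperones Hspa5, Hsp90b1 and Canx had differences of −0.32, −0.23 and −0.19, and none passed (adjusted p 0.245 to 0.259). Of the 16 genes 1 fell without 7 d library 4, and none without both that library and 5 d library 2 or in the fit of the 9 libraries alone.

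Promoter stretches of 4 of these genes are shown because many genes of this organelle share a stress element, read here from RefSeq promoters on GRCm38.p6 that run from 250 bases before to 50 bases after each gene's start. The element searched was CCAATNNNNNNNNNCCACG on both strands. It was found in 39 of 32851 promoters (0.119%). Counted by gene, it was in 37 of 27025 genes (0.137%) and in 5 of the 14 secretion genes that have a promoter in the table. Each line gives the gene's strand 5′ to 3′, with the element in capitals.
Pdia6: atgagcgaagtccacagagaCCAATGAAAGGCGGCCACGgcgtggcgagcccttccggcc
Hspa5: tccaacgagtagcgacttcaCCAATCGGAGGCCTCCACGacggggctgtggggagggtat
Hsp90b1: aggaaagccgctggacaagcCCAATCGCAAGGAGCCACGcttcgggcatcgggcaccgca
Canx: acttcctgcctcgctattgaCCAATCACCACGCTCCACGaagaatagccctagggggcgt
The stretches are chr12:17266471-17266530 (Pdia6, plus strand), chr2:34772005-34772064 (Hspa5, plus strand), chr10:86705617-86705676 (Hsp90b1, minus strand) and chr11:50325779-50325838 (Canx, minus strand). Calr, the chaperone calreticulin, held the element too, and Hsp90b1 held a further match on the opposite strand. Of the 5 genes with the element 1 fell, Pdia6. P4hb and Sec61a1 fell and are not among the 5, but not every secretion gene had a promoter to search.

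Further lists of the secretory route were assembled after the values had been seen, so their counts describe and do not test. Of 24 translocon and glycosylation genes, 12 fell and none rose (median −0.36, all 24 negative). Ssr1, a subunit of the translocon-associated complex, had 21.7, 22.1, 18.5 and 20.6 scaled RPKM at 7 d, against 28.8, 35.5, 28.3, 29.8 and 30 at 5 d (1.46-fold fall, adjusted p = 0.00115). Ddost, a subunit of the enzyme that adds N-linked sugar chains, had 53.7, 56.2, 52.4 and 56.6 at 7 d, against 77.3, 89.6, 69.7, 84.1 and 76.8 at 5 d (1.45-fold fall, adjusted p = 0.00229). Library 4 was the lowest 7 d library in both, by a small margin in Ddost, and neither had overlapping groups. Without library 4, 5 of the 24 fell, without it and 5 d library 2, 2 fell, and on RPKM as deposited 6 fell.

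Of 19 vesicle coat genes, which form the coats that carry cargo between endoplasmic reticulum and Golgi, 8 fell and none rose (median −0.30). Sec13, a cage protein of the outbound coat, had 24.4, 27.1, 21.7 and 24.9 scaled RPKM at 7 d, against 36.0, 40.3, 38.0, 43.0 and 31.4 at 5 d, a 1.53-fold fall without overlap (adjusted p = 0.00229). Copb2, of the return coat, had 24.3, 25.9, 19.4 and 25.1 at 7 d, against 32.3, 38.4, 28.5, 35.0 and 29.6 at 5 d (1.38-fold, adjusted p = 0.0109; 0.0861 with 7 d library 4 left out). Of the 19 genes 1 fell without 7 d library 4, none without both libraries (Sec13, adjusted p = 0.0501), and on RPKM as deposited 2 fell.

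Genes that build and sulphate chondroitin chains were lower as well. In this list, again assembled after the values were seen, 10 of 25 fell and none rose (median −0.39). Papss2, which makes the activated sulphate donor, had 13.0, 13.8, 10.3 and 13.4 scaled RPKM at 7 d, against 18.8, 28.3, 25.4, 19.6 and 18.9 at 5 d (1.74-fold fall, adjusted p = 0.00115). Slc26a2, the sulphate importer of chondrocytes, had 4.68, 4.71, 3.97 and 5.52 at 7 d, against 6.14, 8.98, 8.07, 6.93 and 6.46 at 5 d (1.53-fold fall, adjusted p = 0.00115). Neither had overlapping groups. Chsy1, a chain-extending enzyme, fell 1.65-fold (adjusted p = 0.00567; 0.0507 with 7 d library 4 left out). Of the 25 genes 3 fell when 7 d library 4 was left out, and 3 when 5 d library 2 was left out with it. In the fit of the 9 libraries alone none of the translocon, vesicle coat and chondroitin genes passed.

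Many sterol synthesis genes fell, and at 7 d the list lay within the range of intact ulnas. Of 23 tested genes of sterol synthesis and uptake, a list assembled after the values were seen, 13 fell and none rose, with a median of −0.49 and all differences negative. In 16 of the 23, all 7 d libraries were below all 5 d libraries. Over all genes 1.37% fell and 3.67% had all 7 d libraries below all 5 d libraries. The mean log2 level of the list relative to the mean of intact ulnas was −0.06 to 0.07 in 7 d libraries and 0.44 to 0.60 in 5 d libraries, with intact ulnas at −0.28 to 0.18. Library 4 (−0.05) lay among the other 7 d libraries here.

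Cyp51, the lanosterol demethylase (chr5:4081145-4104746), had 5.22, 6.03, 5.30 and 5.70 scaled RPKM in 7 d ulnas, against 11.4, 12.2, 9.43, 8.64 and 10.5 in 5 d ulnas and 2.78 to 4.75 in intact ulnas. The 7 d libraries were close together and all below the 5 d libraries. The fall was 1.85-fold (log2 difference −0.89 ± 0.12 SE, adjusted p = 0.000578; 0.00105 without 7 d library 4 and 0.00548 without that library and 5 d library 2). Hmgcs1, an early synthase of the pathway, fell 1.55-fold (adjusted p = 0.00490), Sqle, squalene epoxidase, 1.67-fold (adjusted p = 0.0102), and Insig1, the sterol sensor partner, 1.48-fold (adjusted p = 0.0281). Sqle and Insig1 did not pass with 7 d library 4 left out (adjusted p = 0.0561 and 0.113), and Hmgcs1 did (0.0323), though not when 5 d library 2 was left out too (0.105). Of the 23 genes 5 fell without 7 d library 4, on RPKM as deposited 6 fell, and in the fit of the 9 libraries alone 5 fell. With 7 d library 4 and 5 d library 2 both left out, 2 of the 22 genes still tested fell.

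Some sterol-responsive genes carry a sterol element near their start, and the Hmgcs1 promoter stretch that holds its core, TCACNCCAC, is shown with the core in capitals (RefSeq, GRCm38.p6, chr13:119690189-119690248, plus strand).
Hmgcs1: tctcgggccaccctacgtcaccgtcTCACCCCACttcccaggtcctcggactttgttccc
The core, searched on both strands, was in promoters of 1 of the 16 list genes present in the promoter table and of 388 of all 27025 genes (1.44%). Other lists held it as well, with 2 of 12 chondrocyte markers, 2 of 14 secretion genes, 2 of 20 chondroitin genes and 1 of 8 osteoclast markers. Matches of the 2 elements overlapped in 0 promoters.

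**Figure D3:**
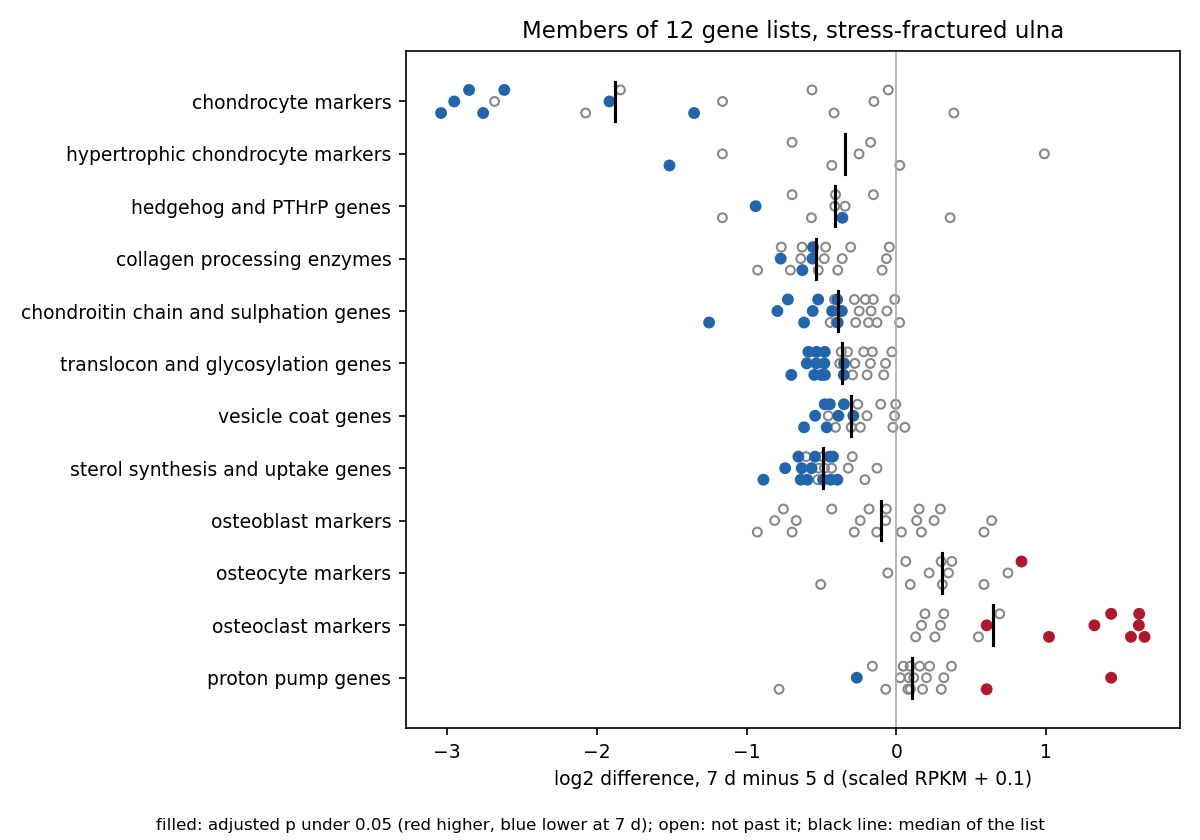
Log2 difference of 7 d minus 5 d (horizontal axis, scaled RPKM plus 0.1) for each tested member of 12 gene lists, filled where the adjusted p was under 0.05 (red higher at 7 d, blue lower) and open otherwise, with the list's median as a black line. Chondrocyte markers reach furthest down with a median of −1.88, sterol and secretory lists sit between −0.54 and −0.30, and osteoclast markers lie above 0 with a median of 0.65.

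**Figure D4:**
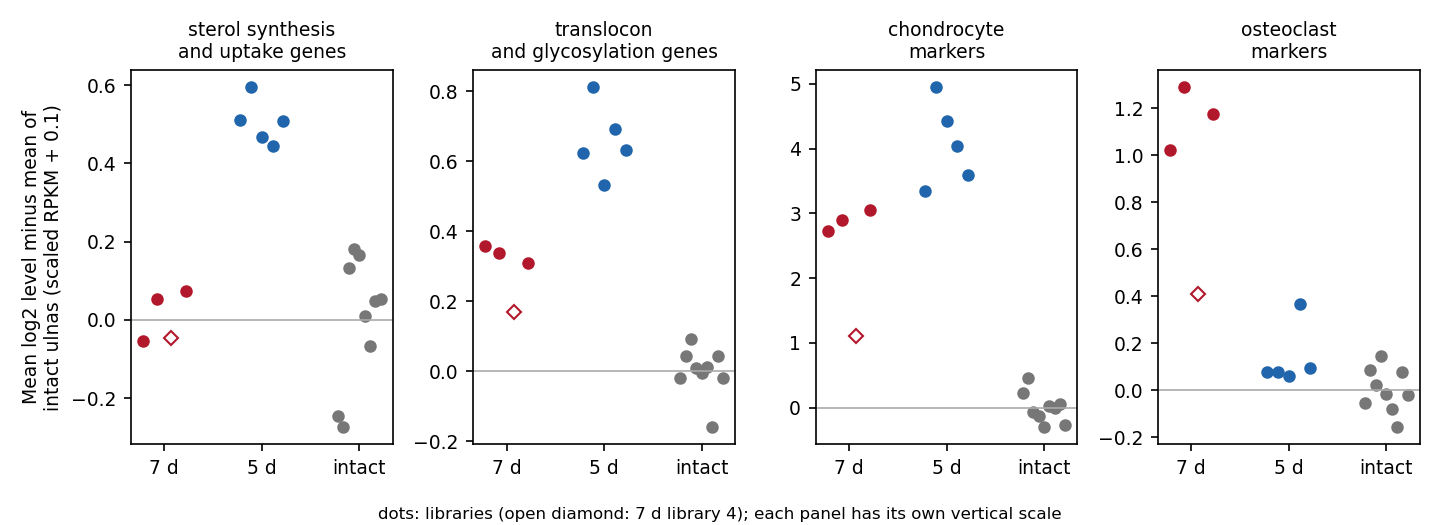
Mean log2 level of 4 gene lists in each library relative to the mean of intact ulnas (vertical axes, each with its own scale), for 7 d (red), 5 d (blue) and intact ulnas (grey). The 7 d libraries lie within the intact range for sterol genes, between 5 d and intact for translocon genes and chondrocyte markers, and above 5 d for osteoclast markers, with 7 d library 4 (open diamond) nearest to intact in the last 3.

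Single genes fell in several signalling and cell type lists. Over all genes tested 1.37% fell, so single calls among many lists describe these genes and not their lists. Sfrp1, a secreted Wnt antagonist, was the 1 of 20 Wnt genes that changed, with 5.31, 7.01, 4.38 and 6.85 scaled RPKM at 7 d, against 13.5, 18.6, 13.2, 11.7 and 9.79 at 5 d (2.23-fold fall, adjusted p = 0.0185). Igfbp4, which binds insulin-like growth factors, was the 1 of 14 IGF genes, and averaged 94.8 ± 6.96 at 7 d and 144 ± 29.97 at 5 d (SD, n = 4 and 5; adjusted p = 0.0308). Fgfr3, a growth factor receptor that restrains chondrocytes, was the 1 of 15 FGF genes (1.58-fold fall, adjusted p = 0.0449). Without 7 d library 4, Sfrp1, Igfbp4 and Fgfr3 did not pass (adjusted p 0.107 to 0.219). Cspg4, the NG2 proteoglycan of pericytes and early mesenchymal cells, had 34.7, 30.3, 22.8 and 32.9 at 7 d, against 46.5, 63.7, 56.5, 59.1 and 41.7 at 5 d. It was the 1 of 12 mural markers that changed (1.77-fold fall, adjusted p = 0.00158), and it fell without library 4 too (adjusted p = 0.0107). Ncmap, a myelin gene, and Nr4a2, an immediate early nuclear receptor, fell as the 1 of 11 Schwann cell markers and the 1 of 18 immediate early genes (adjusted p = 0.0406 and 0.0461), but not with 7 d library 4 left out (0.198 and 0.165).

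Imprinted genes of the fetal growth network were lower in part. In a list assembled after the values were seen, 3 of 15 tested genes fell and none rose (median −0.51). Mest had 16.8, 13.7, 15.1 and 18.7 scaled RPKM at 7 d, against 25.0, 68.9, 37.2, 41.1 and 25.6 at 5 d (2.30-fold fall, adjusted p = 0.0144). Zim1 fell 1.99-fold (adjusted p = 0.0143) and Peg3, a zinc finger protein, 1.77-fold (adjusted p = 0.0311). Groups did not overlap in Mest and Peg3, although the highest 7 d library of Peg3 (18.7) and its lowest 5 d library (18.8) were next to each other, and in Zim1 the highest 7 d library was above the lowest 5 d one. Igf2, the growth factor itself, had 23.4, 31.4, 21.7 and 28.7 at 7 d, against 19.98, 48.7, 34.6, 33.2 and 20.8 at 5 d (adjusted p = 0.819). None of the 15 passed without 7 d library 4.

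Osteoblast genes did not pass in either direction. Of 20 osteoblast markers 0 rose and 0 fell by limma at the adjusted threshold (smallest adjusted p 0.0528, median −0.10). Ibsp, bone sialoprotein, had 949, 1015, 323 and 916 scaled RPKM at 7 d, against 1305, 1997, 950, 1265 and 1116 at 5 d (log2 difference −0.81 ± 0.32 SE, adjusted p = 0.228). Bglap, osteocalcin, which shares reads with a near-identical copy and is therefore uncertain, had 530, 591, 468 and 622 at 7 d, against 532, 348, 398, 647 and 381 at 5 d (adjusted p = 0.899). Runx2, the bone transcription factor, averaged 19 ± 3.54 at 7 d and 18.5 ± 2.76 at 5 d (SD, n = 4 and 5; adjusted p = 0.959). Of 12 osteocyte markers 1 rose, the potassium channel gene Kcnk2, with 1.53, 1.92, 1.30 and 2.16 at 7 d, against 0.872, 0.830, 0.920, 0.979 and 0.972 at 5 d (1.77-fold, adjusted p = 0.0218). Kcnk2 passed without 7 d library 4 (adjusted p = 0.0254) but not without that library and 5 d library 2 together (0.0696). It also did not pass without 7 d library 2, 7 d library 5 or 5 d library 2, each left out singly, or in the fit of the 9 libraries alone. Sost, the osteocyte inhibitor of bone formation, averaged 120 ± 11.8 at 7 d and 116 ± 30.7 at 5 d (adjusted p = 0.899). Dmp1 and Phex, mineral-regulating genes of osteocytes, had differences of 0.22 and 0.58 that did not pass (adjusted p 0.794 and 0.122).

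Of the 43 lists drawn up at the start, 27 had no member called. Among them were 24 cell cycle genes (median −0.09), 17 macrophage markers (−0.12), 15 neutrophil markers (0.30), 13 B cell markers (−0.02), 15 erythroid markers (0.19), 20 skeletal muscle markers (0.11), 15 endothelial markers (−0.16) and 15 inflammatory cytokines and chemokines (−0.15). The proliferation gene Mki67 had 35.4, 44.1, 80.5 and 41.7 scaled RPKM at 7 d, against 35.2, 34.2, 52.9, 43.0 and 50.0 at 5 d, with library 4 highest (adjusted p = 0.818). A p that misses the threshold does not show that these groups were alike at the 2 times. The mean log2 level of the erythroid markers relative to intact ulnas was −0.88 in 7 d library 4, −2.07 to −1.50 in the other 7 d libraries and −2.80 to −1.03 at 5 d. The part of blood-forming tissue in that library's values was not tested.

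Set against the interval before it, the change between 5 d and 7 d ran the opposite way for cartilage. The difference between the intervals, (7 d minus 5 d) minus (5 d minus 3 d), was positive in 47 genes (0.225%) and negative in 183 (0.876%). On RPKM as deposited 89 were positive and 91 negative, and with upper-quartile scaling 114 and 110. The intervals share the 5 d libraries with opposite sign, so a high 5 d library moves both. Without 5 d library 2, 11 genes were higher and 64 lower. Of the 16 chondrocyte markers 11 were lower and none higher, with a median of −4.97 against −0.01 for all genes. Col9a3 had a log2 difference of −2.76 between 7 d and 5 d, against 5.52 between 5 d and 3 d (difference −8.28 ± 0.89 SE, adjusted p = 4.73e-06). Matn3, Col9a1 and Lect1 were the next lowest, at −7.78, −7.75 and −7.68. In levels, Hapln1 averaged 28.3 ± 16.6 scaled RPKM at 5 d, having been 2.11 at 3 d, and 3.77 ± 2.22 at 7 d.

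The highest differences between intervals by the naming rule were in Ccr1, Ccl9, Tm4sf19 and Ccl6. Ccr1 averaged 10.1 scaled RPKM at 3 d, 4.86 at 5 d and 8.48 at 7 d (difference between intervals 1.74 ± 0.34 SE, adjusted p = 0.00551). Ccl9, a chemokine of macrophages and osteoclasts, averaged 13.8 at 3 d, 7.79 at 5 d and 15.3 at 7 d (1.66 ± 0.39 SE, adjusted p = 0.0304). Ccl6, a related chemokine, averaged 26.4 at 3 d, 13.0 at 5 d and 17.6 at 7 d (1.41, adjusted p = 0.0101), and Tm4sf19 had a difference of 1.55 (adjusted p = 0.0212). The differences of Ccl9 and Tm4sf19 did not pass without 5 d library 2. Of 16 osteoclast markers 1 was higher, with a median of 0.73, and of 23 sterol genes none passed (median −0.45). Between 3 d and 5 d the list medians were −0.05 for sterol genes and −0.03 for translocon genes, beside 0.01 for all genes.

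**Figure D5:**
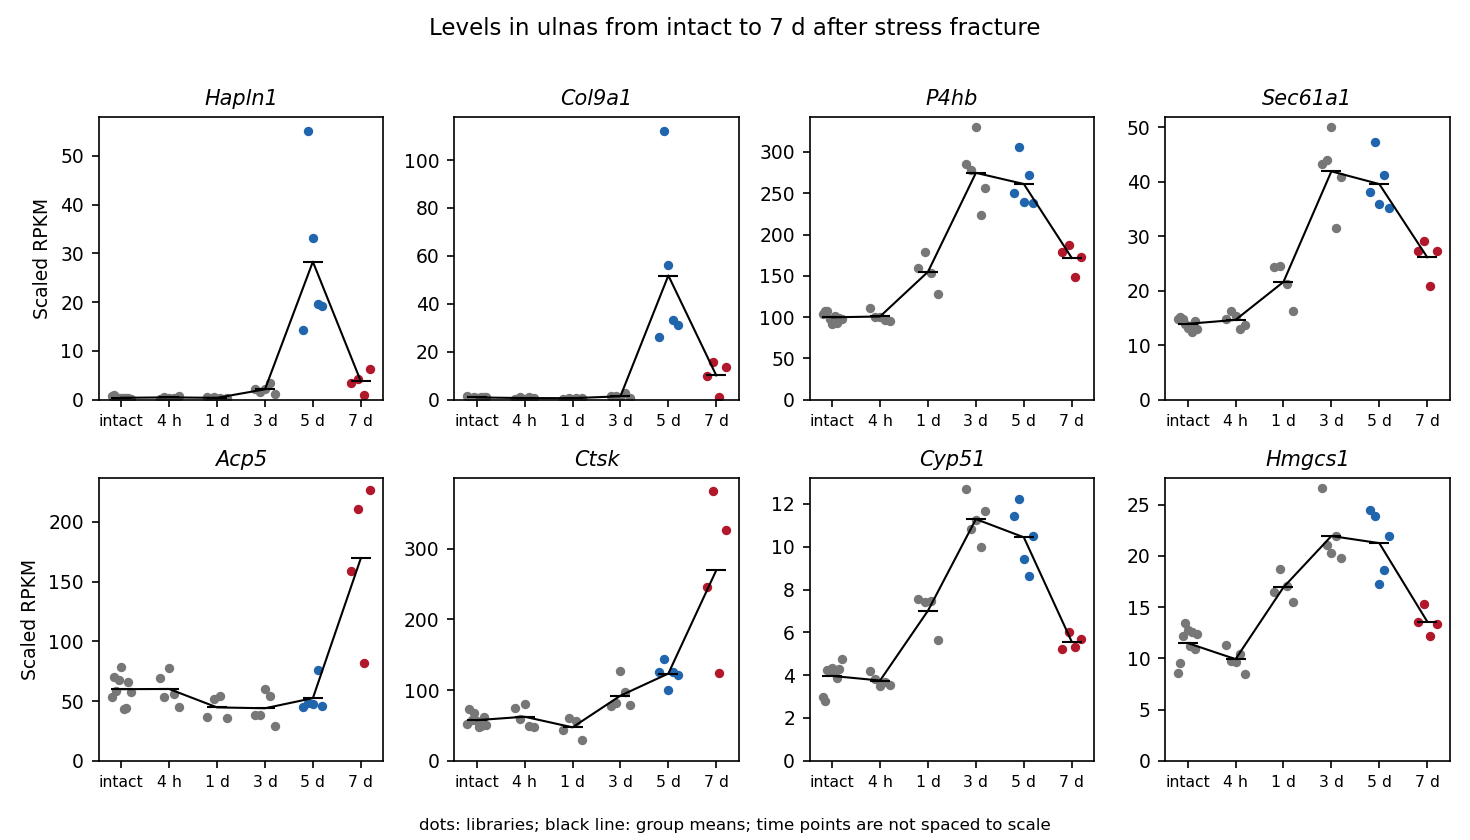
Scaled RPKM (vertical axes, starting at 0) of 8 genes in intact ulnas and at 4 h, 1 d, 3 d, 5 d (blue) and 7 d (red) after stress fracture, one point per library and a line through the group means, with times not spaced to scale. Hapln1 and Col9a1 are high at 5 d, P4hb, Sec61a1, Cyp51 and Hmgcs1 are high at 3 d and 5 d and lower at 7 d, and Acp5 and Ctsk have their highest mean at 7 d.

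The deposited comparison of each time with intact ulnas shows the same genes from the other side, and its 2 times share the intact libraries. In the authors' deposited table Acp5 had a log2 fold change of 1.41 ± 0.20 SE at 7 d (adjusted p = 4.78e-11) and −0.19 ± 0.15 SE at 5 d (adjusted p = 0.291). For Mmp9 the authors' deposited table gave 1.27 at 7 d and −0.04 at 5 d, and for Ctsk 2.10 at 7 d and 1.09 at 5 d. In the authors' deposited table Hapln1 stood at 2.396 at 7 d and 5.13 at 5 d, and Col2a1 at 3.25 at 7 d and 5.10 at 5 d. Cyp51 was at 0.48 at 7 d and 1.37 at 5 d in the authors' deposited table. No adjusted p over these pairs tests the difference between the times.

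A parallel step of the other injury was the change from 7 d to 14 d after a full fracture of the femur. Of 21417 genes tested there, 3150 rose (14.7%) and 3844 fell (17.9%). The intervals, the bones, the injuries and the removal of marrow differ together and cannot be told apart. The ulna change minus the femur change was positive in 1288 genes (6.01%) and negative in 1229 (5.74%), with a median of 0.02. On RPKM as deposited 787 were positive and 1639 negative. Osteoclast markers were lower in that difference in 13 of 16 and higher in none, and in femurs all 16 rose, with a median log2 difference of 2.56 against 0.65 in ulnas. Acp5 had a difference of 1.63 in ulnas and 3.15 in femurs in this joint fit (difference −1.52 ± 0.43 SE, adjusted p = 0.0118). Of chondrocyte markers 14 of 16 fell in femurs, with a median of −3.05, and 3 of 16 were higher in the ulna-minus-femur difference. For Hapln1 the changes were −2.94 in ulnas and −3.61 in femurs, and their difference did not pass (0.67 ± 0.83 SE, adjusted p = 0.715). Of sterol genes 22 of 23 fell in femurs, with a median of −0.98, and 7 were higher in the difference.

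Myh3, the embryonic myosin of regenerating muscle, had the highest ulna-minus-femur difference by the naming rule (3.05 ± 0.82 SE, adjusted p = 0.00717), with a change of 0.60 in ulnas and −2.45 in femurs. In ulnas it had 6.82, 8.39, 6.15 and 4.36 scaled RPKM at 7 d, against 5.93, 19.8, 2.36, 2.002 and 2.04 at 5 d. Ucma, a cartilage matrix protein, C1qtnf3 and Angptl2, a secreted angiopoietin-like protein, followed at 2.97, 2.73 and 2.45. Each fell in femurs. C1qtnf3 fell in ulnas too, by less. In the ulna fit without 7 d library 4, Ucma and Angptl2 had log2 differences of −1.77 and −0.57, which did not pass (adjusted p = 0.411 and 0.175). The lowest were the B cell genes Ighj3, Igkj4, Iglc1 and Spib, at −3.91, −3.67, −3.46 and −3.20. Ighj3 had a change of −0.52 in ulnas (adjusted p = 0.863) and 3.39 in femurs. B cell markers rose in 11 of 13 in femurs and in 0 of 13 in ulnas, and 10 of 13 were lower in the difference. The summed level of the 13 was 39.4 to 65.3 scaled RPKM in 7 d ulnas, 30.4 to 77.9 in 5 d ulnas and 71.9 to 203 in intact ulnas.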

How the data were processed

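Ribosomal-depleted total RNA of bone pieces was read as single 50 nt reads. Reads were aligned to mm10 with STAR 2.4.2a and counted with featureCounts 1.4.6, per the submitters' processing notes, and the authors deposited RPKM per gene and library. The log2 fold changes and adjusted p-values of each time against intact ulnas are from the authors' deposited tables, and DESeq2 is named in the submitters' processing notes. The gene annotation counted against is not given here. Columns carry the side and a number but no animal, and the time comes from the table name, so no pairing of libraries was used.

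From the deposited RPKM, relative depth was read off the steps of low values: 88.9% to 90.6% of values under 20 reads were whole within 0.01 read. RPKM was scaled by the median of ratios (factors 0.905 to 1.107 in ulnas), and 27 gene names that had turned into dates were left out. Genes with at least 0.5 scaled RPKM in 4 or more ulna libraries were fitted as log2(scaled RPKM + 0.1) with limma 3.58.1 (R 4.3.3, trended and robust) over all 32 ulna libraries, or over 67 for the comparison with femurs. Fold changes are on that log2 scale, which understates changes of low genes. P-values were adjusted by Benjamini-Hochberg over all genes. The fit was tested on simulated data. Each p-value quoted without a named tool is limma's.

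Named genes were the 12 largest rises and 12 largest falls past adjusted p 0.05, with a mean of 5 scaled RPKM or more at the higher time and libraries that did not overlap between times, without predicted or clone names, and the 4 largest each way in each difference between changes, for which no overlap condition was applied. Other genes named are list members, some chosen for their role after their values were seen. Groups, lists and genes were chosen with earlier results of these data known, and 6 lists were added after the values were seen. Gene positions are GRCm38 (GENCODE M21), and promoters are from RefSeq on GRCm38.p6. Alternatives were other scalings, pseudocounts of 1 and 0.01, other filters, a fit without trend, a fit of the 9 libraries alone, and each library left out. Results of a few genes are not reported here.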

Additional observations from a re-analysis of the deposited data

Results flagged for a closer look

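Each of the following values had a gap to the nearest library of its group above Dixon's critical value. They came from 24 of 300 gene groups and 4 of 26 list-score groups examined, and chance gives about 1 in 20. Library 4 of the 7 d group was low in Ibsp at 323.2 scaled RPKM (the other 7 d libraries 916.2 to 1015), in P4ha1 at 23.54 (28.44 to 29.21) and in Sema4d at 11.99 (14.95 to 15.49). The mean log2 level of lists relative to intact ulnas was low in that library too. It was 1.106 for chondrocyte markers (the others 2.729 to 3.047), 1.169 for hypertrophic chondrocyte markers (2.598 to 2.761) and 0.301 for chondroitin genes (0.530 to 0.569). Library 5 of the 7 d group was high in Ccl6 at 20.57 scaled RPKM (16.33 to 17.00).

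Among 5 d libraries, library 4 was high in Acp5 at 75.7 scaled RPKM (the others 44.96 to 48.05) and in the osteoclast list at 0.369 (0.061 to 0.094), on the side of the 7 d libraries. Library 2 was high in Myh3 at 19.82 (2.002 to 5.932), in Iglc1 at 72.74 (16.27 to 28.82) and in Ssr1 at 35.45 (28.27 to 30), and low in Itgb3 at 31.3 (40.09 to 42.4). Library 3 was low in Phex at 21.26 (34.19 to 36.65).

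The genes examined were ones chosen for this text, many of them of bone, cartilage or bone resorption. Among intact ulnas, library 2 was high in 9 of them, and what these 9 have in common was not tested. These were Ibsp at 164.3, Dmp1 at 55.26, Comp at 102, Col10a1 at 7.465, Papss2 at 7.627, Ucma at 0.4931, Tnfsf11 at 4.328, Tnfrsf11b at 12.19 and Ccl9 at 9.706 scaled RPKM. Other intact libraries were high in Atp6v0d2 at 6.946 (library 5), Col9a3 at 0.7457 (library 8), Panx3 at 1.107 (library 9), and Matn1 at 0.2372 and Igkj4 at 58.3 (library 7).

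Changes that differed between the intervals were 1.74 for Ccr1, 1.66 for Ccl9, 1.55 for Tm4sf19 and 1.41 for Ccl6 (log2, 7 d minus 5 d, less 5 d minus 3 d). The lowest were −8.28 for Col9a3, −7.78 for Matn3, −7.75 for Col9a1 and −7.68 for Lect1. Changes that differed between the ulna and the femur step were 3.05 for Myh3, 2.97 for Ucma, 2.73 for C1qtnf3 and 2.45 for Angptl2. The lowest were −3.91 for Ighj3, −3.67 for Igkj4, −3.46 for Iglc1 and −3.20 for Spib. All 16 had limma adjusted p under 0.05.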

How the results depend on the processing

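All 344 called genes kept their sign under the other scalings and pseudocounts, but counts moved. The genes were called from these same libraries, and the scalings moved the median of all genes little, so kept signs hardly test the calls. The fit of the 9 libraries alone keeps the same scaling and group means, so no sign could change in it. On RPKM as deposited 91 genes fell, of them 28 at least 2-fold, and with upper-quartile scaling 104 fell, so that rises were 36.8% and 41.6% of calls, beside 16.9% with median-of-ratios scaling. The median of all genes was then 0.068 and 0.075. The fit of the 9 libraries alone gave 3 rises and 19 falls, of them 3 and 8 at least 2-fold. Without 7 d library 4 and 5 d library 2 together, a setting chosen after seeing the data, 31 genes rose and 20 fell, 5 of the falls at least 2-fold. Of the 344 calls, 45 were then shared. For the difference between intervals, deposited RPKM gave 89 higher and 91 lower, and upper-quartile scaling 114 and 110. For the difference between injuries, deposited RPKM gave 787 higher and 1639 lower. The cause was not tested.

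Leaving out single libraries gave 20 to 72 rises and 53 to 367 falls, 11 to 21 and 13 to 54 at least 2-fold, 11 to 122 higher and 64 to 297 lower between intervals, and 1080 to 1371 higher and 1017 to 1282 lower between injuries. Of 63 called genes among those named here, 34 kept their call without 7 d library 4, 36 without 5 d library 2, 50 on deposited RPKM, 52 with upper-quartile scaling and 6 in the fit of the 9 libraries alone. Injured ulnas at 7 d and 5 d come from different animals, so no pairing exists between them. Injured and intact ulnas could not be paired because the column numbers are not tied to animals. At 12.8 to 17.4 M reads, genes that reached 0.5 scaled RPKM in fewer than 4 ulna libraries were not tested.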
